A study of Mus musculus with 24 samples.

Results

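Presentation of antigen to CD4 T cells was followed through 10 genes in sorted mouse lung macrophages. These were the MHC class II chains H2-Aa, H2-Ab1 and H2-Eb1, the invariant chain Cd74, the peptide-loading subunits H2-DMa, H2-DMb1 and H2-DMb2, the transactivator Ciita, the costimulatory ligand Cd86 and the receptor Cd40. They were chosen by gene symbol, as 10 of the 49022 genes counted in both of the deposited tables. All 10 passed the filter on low counts in each of the 9 comparisons. Polyadenylated RNA was sequenced in bulk from 24 libraries in 8 groups of 3. Cells came from wild-type C57BL/6J mice or from knock-in mice in which EGFP reports Spp1, the gene of the secreted matrix protein osteopontin. Mice had received PBS or bleomycin, a drug that injures the lung and leads to fibrosis, into the trachea (3 µg per g body weight). The sorted gate CD11b+ SiglecF- is named interstitial macrophages (IMs) in what follows, and the gate CD11b- SiglecF+ alveolar macrophages (AMs).

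The wild-type groups were IMs at day 7 after PBS and at day 7 after bleomycin, with no EGFP gate. The reporter IM groups, all treated with bleomycin, were EGFP- at day 7, EGFP+ at day 7 and EGFP+ at day 14. The reporter AM groups were all EGFP+, with PBS at day 7 or bleomycin at day 14 or 30. No reporter IMs after PBS were analysed here, so wild-type IMs stand in for them, and genotype and the EGFP gate then differ along with the surface gate. The labels do not say whether the 3 libraries of a group came from separate mice, so p-values measure the spread between libraries, which may be technical. The age and sex of the mice are not given in the sources used here.

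An MHC class II molecule is a pair of an alpha and a beta chain that displays peptides from the endosome to CD4 T cells. The invariant chain blocks the groove until it is digested, and the H2-DM dimer then removes its last fragment and edits the peptides. Ciita, a coactivator that does not itself bind DNA, is recruited to a shared promoter module, in which the X box is bound by RFX and the Y box by NF-Y. Macrophages raise class II when interferon gamma induces Ciita, whereas dendritic cells and B cells keep it on by other Ciita promoters. Cd86 binds CD28 on T cells, and Cd40 receives the T cell signal CD40L and feeds the noncanonical NF-κB pathway.

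The shared promoter module is visible in the letters before some of the start sites. The 4 sequences that follow are from the matched windows of the 10 genes that held both cores described below. RefSeq (GRCm38.p6) promoters were matched for 5 of the 10 genes, in 6 windows of 300 bases, counting 2 windows for H2-DMa. Each line holds the 150 bases before the RefSeq start, on the gene's strand, with an X core (CTNNNAAC) and a Y core (GATTGG) in capitals. The regions are chr17:34287824-34287973 (minus strand) for H2-Aa, chr17:34305717-34305866 (plus strand) for H2-Eb1, chr17:34153041-34153190 (plus strand) for H2-DMb1 and chr17:34145099-34145248 (plus strand) for H2-DMb2.
H2-Aa: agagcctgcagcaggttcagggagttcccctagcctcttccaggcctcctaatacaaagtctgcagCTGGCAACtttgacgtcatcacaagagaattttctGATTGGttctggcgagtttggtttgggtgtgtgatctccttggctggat
H2-Eb1: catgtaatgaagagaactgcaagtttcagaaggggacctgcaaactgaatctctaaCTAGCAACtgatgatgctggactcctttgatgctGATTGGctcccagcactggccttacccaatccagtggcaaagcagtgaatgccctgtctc
H2-DMb1: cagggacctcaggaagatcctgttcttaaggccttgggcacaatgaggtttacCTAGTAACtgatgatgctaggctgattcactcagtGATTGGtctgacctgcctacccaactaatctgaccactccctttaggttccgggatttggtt
H2-DMb2: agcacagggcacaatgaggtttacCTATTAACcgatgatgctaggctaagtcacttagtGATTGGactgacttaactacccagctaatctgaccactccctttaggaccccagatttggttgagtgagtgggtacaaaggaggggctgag
The X core starts 84 bases before the start of H2-Aa, 94 before H2-Eb1, 97 before H2-DMb1 and 126 before H2-DMb2. From the first base of the X core to the first base of the Y core there are 35, 34, 35 and 35 bases. The pair was searched on both strands as CTNNNAAC followed by GATTGG on the same strand with 20 to 45 bases between their first bases, a pattern written after these sequences were read. It occurs in 138 of 32851 windows of the same length (0.420%), and GATTGG alone occurs in 16.1%. Neither H2-DMa window held the pair. The 150 bases before their starts are chr17:34122682-34122831 and chr17:34125368-34125517 (plus strand). Both lie upstream of the H2-DMa start at 34135182 in one of the deposited tables. No window at that start was searched, so the result does not cover it. H2-Ob, a subunit of the H2-DM inhibitor H2-DO, held it with a spacing of 32, and the windows of H2-Oa, the other H2-DO subunit, and H2-Eb2 did not.

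The genes lie on mouse GRCm38 (coordinates of the deposited tables). The H2 genes are on chromosome 17: H2-Aa (ENSMUSG00000036594) from 34282744 on the minus strand, and H2-Ab1 (ENSMUSG00000073421), H2-Eb1 (ENSMUSG00000060586), H2-DMa (ENSMUSG00000037649), H2-DMb1 (ENSMUSG00000079547) and H2-DMb2 (ENSMUSG00000037548) on the plus strand. Ciita (ENSMUSG00000022504) and Cd86 (ENSMUSG00000022901) are on chromosome 16, Cd40 (ENSMUSG00000017652) on chromosome 2 and Cd74 (ENSMUSG00000024610) on chromosome 18. All are protein-coding. Cd86 (chr16:36603869-36666081, minus strand), Cd40 (chr2:165055627-165072948, plus strand) and H2-DMb1 (chr17:34153072-34160230, plus strand) had the same coordinates in both tables, and the other 7 did not. H2-DMa differed most in start, 34135182 in one table and 34119541 in the other, where its interval overlaps Brd2. Ciita overlaps Dexi on the other strand in both tables. The strand setting of the counting is not given in the sources used here, so reads from such pairs cannot be told apart.

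The libraries held between 13450053 and 24580620 counts each. Levels are in CPM, a gene's count relative to the total of its library, and group values are mean ± SD over 3 libraries. Itgam, which encodes CD11b, was higher in IMs than AMs at day 14 (log2 difference 5.02 ± 0.33, SE), and Siglecf was lower (-3.89 ± 0.51). Markers of other cell types were present in every group. The summed level of 9 B cell markers (Cd79a, Ms4a1, Pax5 and others) was 776 to 901 CPM in the wild-type PBS IMs and 45.2 to 304 CPM in the other 7 groups. That of 11 dendritic cell markers (Flt3, Zbtb46, Ccr7 and others) was 695 to 742 CPM in those PBS IMs and 164 to 578 CPM elsewhere. Both cell types express class II, and neither list had a gene at 0 in any group. With bulk RNA, fewer cells of a type and less RNA per cell cannot be told apart.

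Class II transcripts were abundant in all 8 groups and differed between them by less than the costimulatory genes did. H2-Aa averaged between 1107 ± 91.4 CPM in day 30 AMs and 2610 ± 89.4 CPM in wild-type IMs after bleomycin. Cd40 averaged between 3.83 ± 1.01 CPM in day 30 AMs and 51.4 ± 2.97 CPM in EGFP- IMs. Exon length was taken as the union of a gene's exons over all its annotated transcripts. Scaled by it, the wild-type PBS IMs held 3575 CPM per kb of Cd74, 1150 of H2-Eb1, 1043 of H2-Ab1 and 669.5 of H2-Aa. The loading subunits followed at 95.6 CPM per kb for H2-DMb1, 51.9 for H2-DMa and 49.9 for H2-DMb2, next to 51.8 for Cd86, 12.3 for Cd40 and 5.2 for Ciita. The transactivator was thus the least abundant of the 10 per length there. The order depends on that length. By CPM alone Cd40 (42.1) was below Ciita (49.3), H2-Aa (2543) was above H2-Eb1 (2236) and H2-DMa (179) above H2-DMb1 (161).

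**Figure D1:**
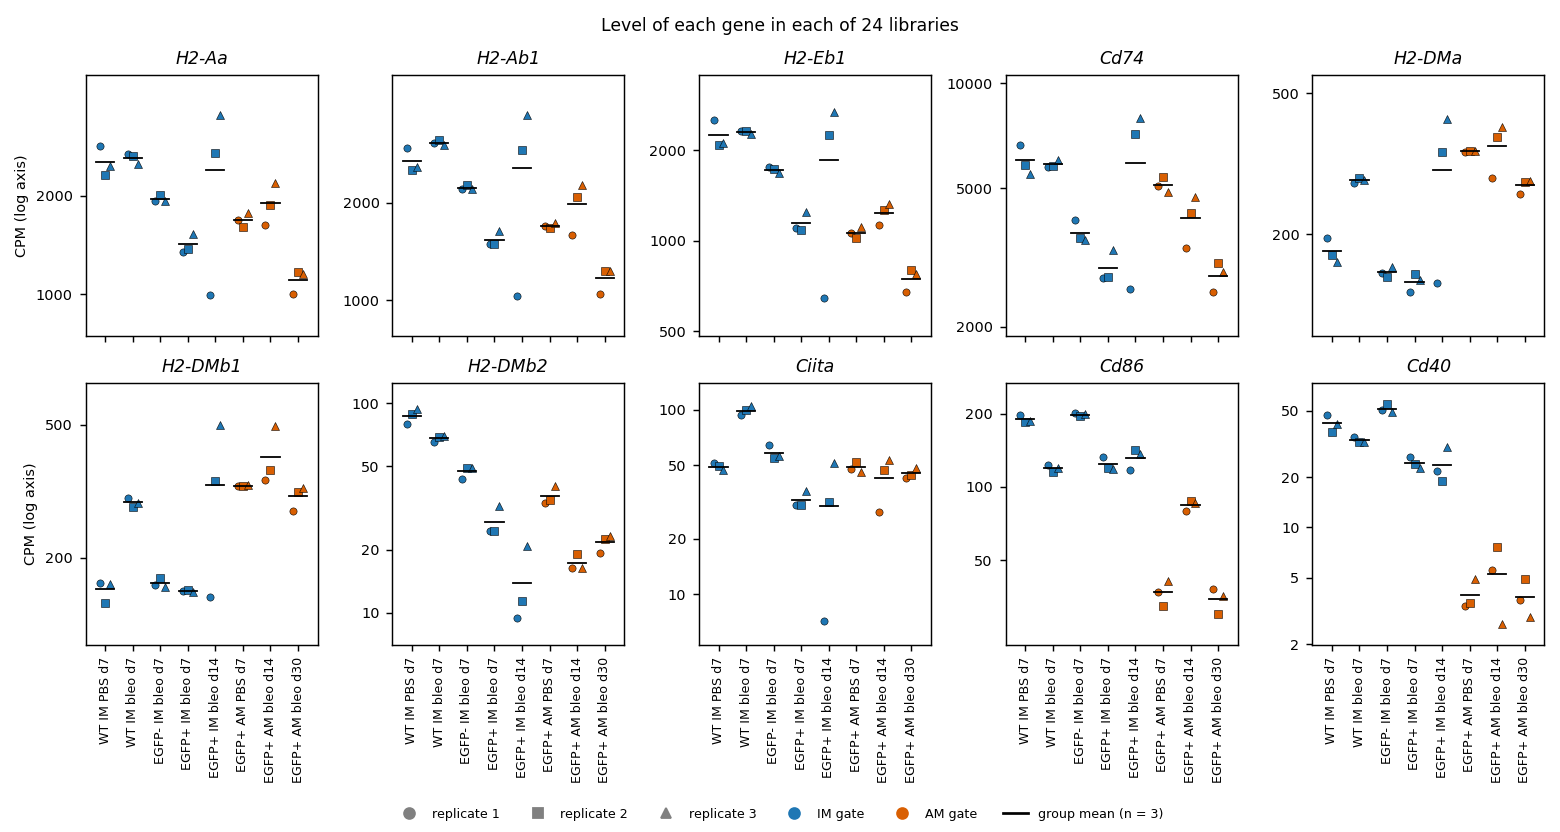
Levels of the 10 genes in every library (CPM, log axis) by group, with points for libraries, coloured by gate, and lines at group means. Class II chains and Cd74 do not fall under 644 CPM, Cd40 drops to 2.65 to 7.58 CPM in the AM groups, and the day 14 IM libraries spread widely for class II.

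Wild-type IMs at day 7 compare bleomycin with PBS within 1 genotype and 1 gate. Ciita, H2-DMa, H2-DMb1 and, by less, H2-Ab1 rose, Cd86, Cd40 and H2-DMb2 fell, and H2-Aa, H2-Eb1 and Cd74 did not pass the test. Of the 10 genes, 4 were called higher and 3 lower by edgeR's quasi-likelihood test at an adjusted p under 0.05, against 35.6% of all tested genes higher and 34.5% lower. The libraries of the groups did not overlap for 7 of the 10 and for 73.1% of all genes tested, and 70.2% of all genes were called in either direction.

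Ciita was at 51.2, 49.6 and 47.1 CPM after PBS and at 93.3, 99.1 and 105 CPM after bleomycin. All 3 bleomycin libraries lay above all 3 PBS libraries, and the log2 fold change was 0.96 ± 0.06 (SE, edgeR adjusted p = 3.31e-12). H2-Aa, a class II alpha chain, was at 2849, 2310 and 2470 CPM after PBS and at 2679, 2642 and 2509 CPM after bleomycin. These ranges overlapped, with a log2 fold change of -0.01 ± 0.06 (adjusted p = 0.922). H2-Eb1 gave -0.01 ± 0.06 and Cd74 -0.08 ± 0.06, both with overlapping libraries, and Cd74 was called lower without PBS replicate 3 (-0.13, adjusted p = 0.0358). H2-Ab1, the beta chain that pairs with H2-Aa, passed at 0.15 ± 0.05 (adjusted p = 0.0165). Its call was lost without PBS replicate 2 (adjusted p = 0.0898), without bleomycin replicate 2 (0.0549) and with all 24 libraries in 1 fit (0.752).

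The loading subunits split. H2-DMb1 was at 168, 147 and 167 CPM after PBS and at 303, 284 and 291 CPM after bleomycin, with no overlap and a log2 fold change of 0.82 ± 0.06 (adjusted p = 1.13e-11). H2-DMa, its dimer partner, rose by 0.62 ± 0.06 on the log2 scale. H2-DMb2, the neighbouring and similar beta gene, was at 79.1, 88.9 and 93.3 CPM after PBS and at 65.5, 68.6 and 69.5 CPM after bleomycin. It fell by 0.41 on the log2 scale (SE 0.07, adjusted p = 7.83e-06). All 9 B cell markers also fell in this comparison, with a median log2 fold change of -2.06. Their part in the H2-DMb2 and Cd40 results was not tested.

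The costimulatory pair fell. Cd86 was at 198, 186 and 186 CPM after PBS and at 123, 115 and 120 CPM after bleomycin (log2 fold change -0.71 ± 0.05, adjusted p = 4.13e-11). Cd40 was at 47.1, 37.4 and 41.7 CPM after PBS and at 35.0, 32.3 and 32.6 CPM after bleomycin (-0.38 ± 0.08, adjusted p = 3.10e-04). For both genes every bleomycin library lay below every PBS library. Downstream of Cd40, 7 of 8 listed signalling genes fell and none rose (0 also at an unadjusted p under 0.05), among them Map3k14, the kinase NIK (-1.65 ± 0.06), Relb (-1.26 ± 0.05), Nfkb2 (-1.16 ± 0.05) and Traf3, an adaptor that restrains NIK (-1.25 ± 0.06). The list's median was -1.03, where the median of all genes was 0.00. With all 24 libraries in 1 fit the Cd40 call was lost (adjusted p = 0.0837), as was that of H2-DMa (0.0519). The summed epithelial markers were 4661 to 6759 CPM after PBS and 223 to 277 CPM after bleomycin, and those of neutrophils 7436 to 8865 and 1593 to 1646 CPM. Their part in these results was not tested.

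Other genes of the class II route were tested beside the class II chains. Of 8 further loading genes tested, 5 rose and 2 fell. The proteases Ctss and Ctsl, which digest the invariant chain, rose by 2.06 ± 0.05 and 2.85 ± 0.07 on the log2 scale, and Ifi30, a thiol reductase that unfolds antigens, by 1.76 ± 0.05. Marchf1 and Marchf8, ubiquitin ligases that remove class II from the surface, rose by 0.83 ± 0.06 and 1.45 ± 0.08. Of the 7 genes of the promoter complex, 2 rose and 3 fell, with Rfx5 at -0.51 ± 0.09. Of 11 MHC class I genes, 9 rose and 1 fell, with Psmb8, an immunoproteasome subunit, at 0.81 ± 0.06.

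EGFP+ and EGFP- IMs of reporter mice at day 7 after bleomycin compare cells of 1 gate by their Spp1 reporter. Cd40, Cd86 and H2-DMb2 were lower in EGFP+ cells, and none of the 10 was called higher (0 by edgeR, 0 by DESeq2 and 0 at an unadjusted p under 0.05). These 3 calls stand against 17.6% of all genes called lower, 17.2% higher and 34.8% in all. The 10 genes had a median log2 difference of -0.61, and all genes one of -0.02. The EGFP+ and EGFP- libraries did not overlap for 9 of the 10 genes, the exception being H2-DMa, and for 58.7% of all genes tested.

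Cd40 was at 50.3, 54.8 and 49.2 CPM in EGFP- cells and at 26.3, 24.01 and 22.6 CPM in EGFP+ cells (log2 difference -1.13 ± 0.17, edgeR adjusted p = 5.09e-04). Cd86 was at 200.3, 195 and 199 CPM in EGFP- cells and at 133, 120.1 and 118 CPM in EGFP+ cells (-0.73 ± 0.11, adjusted p = 5.80e-04). Both sets of libraries were well apart. H2-DMb2 was at 43.5, 49.3 and 48.9 CPM against 24.5, 24.7 and 32.3 CPM (-0.85 ± 0.27, adjusted p = 0.0378), and its call was lost when any 1 of the 6 libraries was left out.

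The class II chains lay lower in every EGFP+ library but did not pass this test. H2-Ab1 was at 2197, 2263 and 2198 CPM in EGFP- cells and at 1492, 1486 and 1631 CPM in EGFP+ cells (-0.58 ± 0.40, adjusted p = 0.2997). Ciita was at 64.4, 55.0 and 56.2 CPM against 30.4, 30.3 and 36.4 CPM (-0.90 ± 0.56, adjusted p = 0.254). The fit took in the 3 day 14 IM libraries, whose class II levels spread widely. With only the 6 libraries of the 2 groups fitted, 8 of the 10 were lower, against 24.8% of all genes. Ciita then gave -0.86 ± 0.08 (adjusted p = 2.88e-07), H2-Ab1 -0.53 (3.44e-06), H2-Eb1 -0.59 (1.69e-06), H2-Aa -0.47 (2.07e-05) and Cd74 -0.33 (0.00162). H2-DMa and H2-DMb1 did not pass in either fit.

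Around these genes, 7 of 8 CD40 signalling genes were lower and none higher (1 at an unadjusted p under 0.05), with Map3k14 at -1.03 ± 0.09, Traf1 at -1.06 ± 0.13 and Nfkb2 at -0.91 ± 0.13. Of 9 interferon gamma pathway genes, 7 were lower and none higher (0 also at an unadjusted p under 0.05), led by the kinase gene Jak2 (-1.06 ± 0.09). The promoter complex had 4 of 7 lower, including Rfx5 (-0.56 ± 0.14) and Creb1 (-0.69 ± 0.08). Among other ligands, Icosl (-1.22 ± 0.15), Cd80, the other CD28 ligand (-0.88 ± 0.11), and Icam1 (-1.04 ± 0.15) were lower. The lysosomal proteases went the other way, with Ctsl at 1.70 ± 0.22 and Ctss at 0.997 ± 0.20. Of the dendritic cell markers, 5 of 11 were lower and none higher (0 also at an unadjusted p under 0.05), and their sum was 531 to 578 CPM in EGFP- and 378 to 449 CPM in EGFP+ cells. The neutrophil sum was 4587 to 6067 and 2009 to 2753 CPM. For general macrophage markers the sum was 5038 to 5049 CPM in EGFP- and 10697 to 14717 CPM in EGFP+ cells, with 5 of 7 higher. For classical monocyte markers it was 1258 to 1287 and 758 to 813 CPM, with 3 of the 5 tested lower. Their part in the lower Cd40, Cd86 and class II was not tested.

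Wild-type IMs at the same day after bleomycin lay outside both reporter groups for most of these genes. For 8 of the 10 genes all 3 wild-type libraries were above all 6 reporter IM libraries, as they were for 24.5% of all genes tested in both sets. The exceptions were Cd86 (115 to 123 CPM) and Cd40 (32.3 to 35.0 CPM), which in wild-type cells lay below the EGFP- libraries. Genotype differs here, so no test was made.

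**Figure D2:**
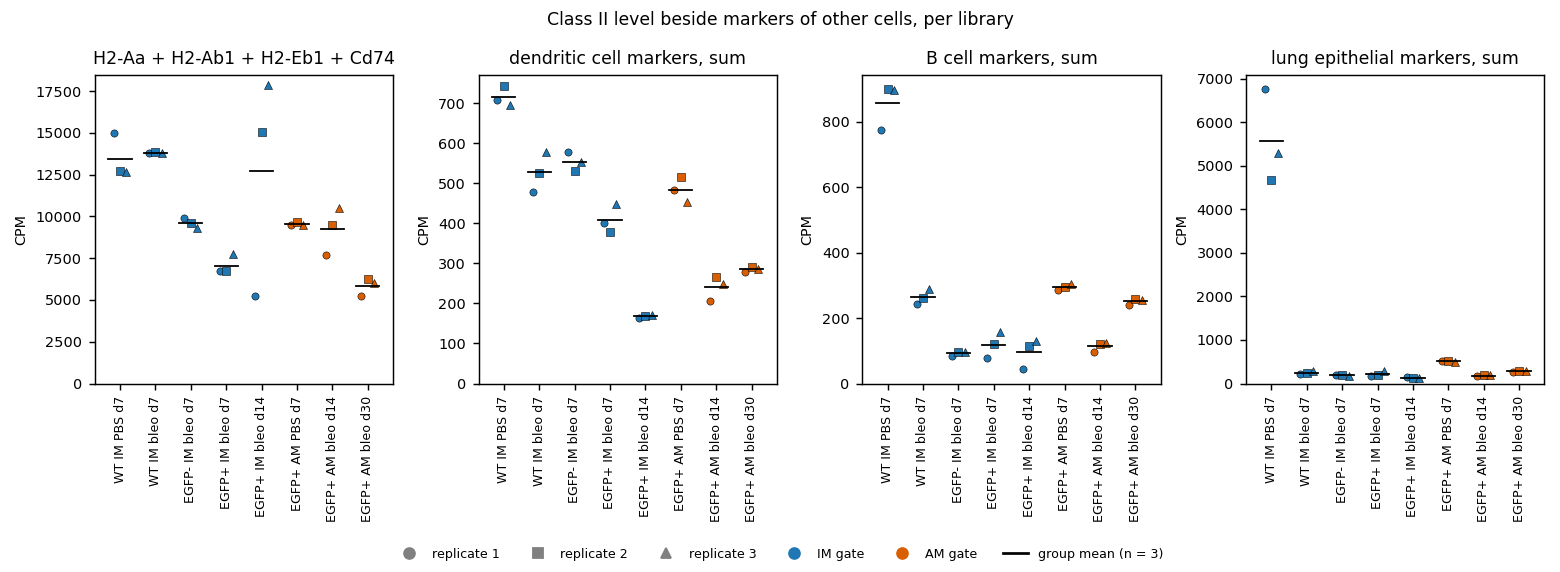
Summed level of H2-Aa, H2-Ab1, H2-Eb1 and Cd74 (left) beside summed markers of dendritic cells, B cells and lung epithelium, in CPM by group, with 1 point per library, coloured by gate, and lines at group means. The day 14 IM libraries run from 5245 to 17865 CPM of class II while their dendritic cell sum stays between 164 and 172 CPM.

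EGFP+ IMs at day 14 were set against EGFP+ IMs at day 7 to follow class II over time. Cd74, H2-DMa, H2-DMb1 and Cd86 were called higher, each with overlapping libraries of the days, and none of the 10 fell by edgeR's test. At an unadjusted p under 0.05, 6 were higher and 1 lower, and DESeq2 called 6 higher and 1 lower, H2-DMb2. The 4 edgeR calls stand against 25.3% of all genes called higher, 26.9% lower and 52.2% in all. The days lie in different deposited tables, so table and day cannot be told apart, and the result rests on which day 14 libraries are used.

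The 3 day 14 libraries disagreed on class II. H2-Ab1 was at 1492, 1486 and 1631 CPM at day 7 and at 1034, 2912 and 3725 CPM at day 14. Cd74 was at 2769, 2785 and 3320 CPM at day 7 and at 2573, 7173 and 7946 CPM at day 14. Ciita was at 30.4, 30.3 and 36.4 CPM at day 7 and at 7.15, 31.9 and 51.2 CPM at day 14. Replicate 1 lay below every day 7 library for these 3 genes, while replicates 2 and 3 lay above them for the class II chain and Cd74. The 3 genes had the same replicate order in day 14 AMs. In AM replicates 1, 2 and 3, H2-Ab1 was at 1590, 2087 and 2274 CPM and Cd74 at 3368, 4236 and 4729 CPM. Ciita was at 27.8, 47.0 and 53.2 CPM there.

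Within day 14, the mean of replicates 2 and 3 exceeded replicate 1 by 5.81 times for Ciita, 3.82 for H2-Eb1, 3.21 for H2-Ab1, 3.13 for H2-Aa, 2.94 for Cd74, 2.75 for H2-DMb1 and 2.63 for H2-DMa. H2-DMb2 gave 1.71, Cd86 1.18 and Cd40 1.14. A ratio over 2 was found for 7 of the 10 genes and for 169 of the 8330 genes with a mean of at least 10 CPM (2.03%). The coefficient of variation was 47.0% to 73.5% for those 7 genes, and at most 31.0% in any other group. Other genes differed as well: replicate 1 had Spp1 at 7616 CPM against 5774 and 4304 CPM, Itgam at 336 against 184 and 151 CPM, and Apoe, a lipid carrier of macrophages, at 14291 against 22006 and 27763 CPM. In replicates 1, 2 and 3 the dendritic cell sum was 164, 169 and 172 CPM, the B cell sum 45.2, 115 and 129 CPM and the T cell sum 38.6, 52.9 and 88.2 CPM. The sum of 7 general macrophage markers, most of it Lyz2, was 17919, 38000 and 50277 CPM, in the same order as class II. That of 9 alveolar macrophage markers was 3224, 1924 and 1548 CPM, in the opposite order. Siglecf, a low member of that list, went the other way, at 2.43, 9.6 and 10.3 CPM. The part of these differences in the class II spread was not tested.

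**Figure D3:**
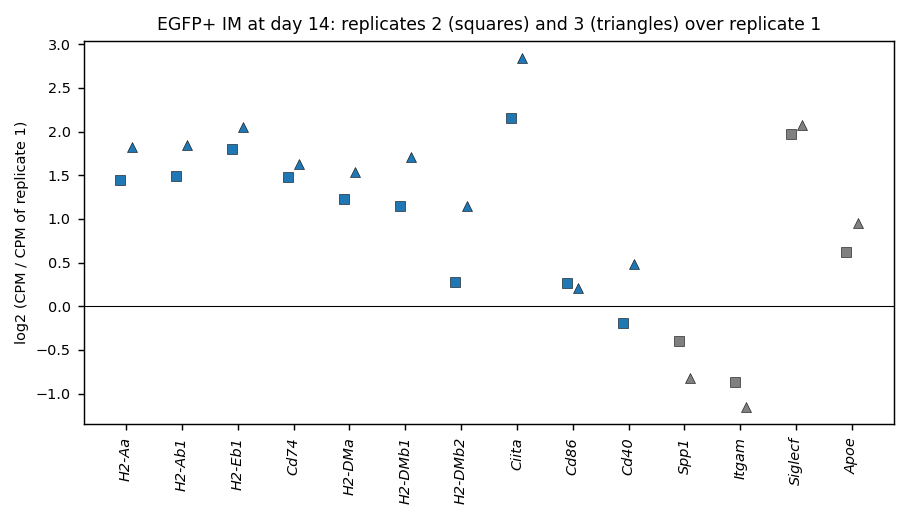
Log2 ratio of the CPM of replicate 2 (squares) and replicate 3 (triangles) to that of replicate 1 in day 14 EGFP+ IMs, for the 10 genes (blue) and for Spp1, Itgam, Siglecf and Apoe (grey), with a line at 0. Ciita lies highest of the 10 in both replicates, and Cd86 and Cd40 lie close to the line.

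The calls depended on those libraries. Cd74 gave a log2 fold change of 1.25 ± 0.37 (edgeR adjusted p = 0.0205), H2-DMa 1.30 ± 0.36 (0.0155), H2-DMb1 1.31 ± 0.38 (0.0204) and Cd86 0.32 ± 0.11 (0.0304). Cd86 was at 133, 120.1 and 118 CPM at day 7 and at 118, 141 and 136 CPM at day 14. Its means were 124 and 132 CPM. With TMM, the scaling of libraries that the edgeR fits use, over all 24 libraries they were 124 and 154 CPM. H2-Aa gave 1.02 ± 0.40 (0.0621), H2-Ab1 0.99 ± 0.41 (0.0699), H2-DMb2 -0.72 ± 0.28 (0.0589) and Ciita 0.16 ± 0.57 (0.826). Without day 14 replicate 1, 8 of the 10 were higher, against 25.9% of all genes, with Cd74 at 1.62 ± 0.11 and Ciita at 0.63 (adjusted p = 0.0150). Without day 14 replicate 3 none was higher and H2-DMb2 was lower (-1.21, adjusted p = 4.57e-05). Leaving out day 14 replicate 2 or day 7 replicate 1 or 3 left 2 of the 10 higher, and leaving out day 7 replicate 2 left 1.

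Around them, 7 of 8 CD40 signalling genes fell at day 14, with Traf1 at -1.93 ± 0.13, and none rose (0 also at an unadjusted p under 0.05). Of the interferon gamma list, 5 of 9 fell and 1 rose, with Jak2 at -1.89 ± 0.10 and Socs1, a feedback inhibitor, at -1.48 ± 0.16. In the promoter complex 5 of 7 fell and 1 rose. Among the loading genes 5 of 8 rose, including Lgmn, an endosomal protease (1.24 ± 0.15), and 2 fell. Of the dendritic cell markers, 10 of 11 fell, with sums of 378 to 449 CPM at day 7 and 164 to 172 CPM at day 14. All 9 neutrophil markers fell too (sums of 2009 to 2753 and 132 to 202 CPM), and all 7 macrophage markers rose (10697 to 14717 and 17919 to 50277 CPM), as did 5 of 10 interstitial macrophage markers. The part of these lists in the 4 calls was not tested.

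EGFP+ AMs were compared at day 14 after bleomycin and day 7 after PBS. By edgeR's fit after TMM scaling, Cd86 rose 2.61 times, H2-Aa, H2-Ab1, H2-Eb1 and H2-DMb1 rose by 1.28 to 1.39 times, and H2-DMb2 fell. These 5 higher and 1 lower calls stand against 27.3% of all genes higher, 27.6% lower and 54.9% in all. Cd86 was at 37.1, 32.5 and 41.0 CPM after PBS and at 79.8, 87.7 and 86.2 CPM at day 14 (log2 fold change 1.38 ± 0.10, edgeR adjusted p = 6.56e-09). The groups did not overlap. The sum of 10 interstitial macrophage markers was 59.6 to 105 CPM after PBS and 1037 to 1471 CPM at day 14, with 6 of 10 higher. That of 6 classical monocyte markers was 71.4 to 122 and 252 to 431 CPM, with 2 of the 5 tested higher and 3 lower. Among neutrophil markers 1 of 9 rose and 7 fell. Their part in the Cd86 and class II results was not tested.

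The class II changes were smaller, and their size depended on how libraries were scaled. H2-Aa averaged 1691 CPM after PBS and 1896 CPM at day 14. With TMM scaling over all 24 libraries it averaged 1623 and 2054 CPM. H2-Eb1 was at 1059.95, 1025 and 1107 CPM after PBS and at 1129, 1263 and 1324 CPM at day 14 (0.41 ± 0.08, adjusted p = 6.52e-04). Its groups did not overlap, whereas those of H2-Aa (0.35 ± 0.10) and H2-Ab1 (0.41 ± 0.11) did. Cd74 (-0.12 ± 0.11), Ciita (0.00 ± 0.18) and Cd40 (0.59 ± 0.30) did not pass. By CPM, all day 14 libraries of Cd74 (3368, 4236 and 4729) lay below all PBS libraries (5069, 5364 and 4861). H2-DMb2 was at 33.2, 34.3 and 40.2 CPM after PBS and at 16.3, 19.2 and 16.4 CPM at day 14 (-0.87 ± 0.11, adjusted p = 6.75e-06), and all 9 B cell markers fell with it. Treatment, day and table all differ between these groups and cannot be told apart. With all 24 libraries in 1 fit, Cd86 was the 1 gene of the 10 that remained higher. Without day 14 replicate 3, Cd40 was called higher (0.91, adjusted p = 0.00824) and Cd74 lower (-0.25, 0.0390), and without day 14 replicate 1 H2-DMa was called higher (0.37, 2.46e-04).

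By day 30 the class II chains were below the PBS level. Of the 10, 5 were lower and none higher (0 by edgeR, 0 by DESeq2 and 0 at an unadjusted p under 0.05), against 23.1% of all genes lower, 24.8% higher and 47.9% in all. Cd74 was at 5069, 5364 and 4861 CPM after PBS and at 2508, 3039 and 2869 CPM at day 30 (-0.75 ± 0.11, adjusted p = 4.61e-05). H2-Aa was at 1685, 1611 and 1777 CPM after PBS and at 1002, 1168 and 1151 CPM at day 30 (-0.50 ± 0.10, adjusted p = 6.26e-04). The day 30 libraries lay below all PBS libraries for both. H2-Ab1 (-0.42 ± 0.11), H2-Eb1 (-0.39 ± 0.08) and H2-DMb2 (-0.61 ± 0.11) also fell. Cd86 was back at 38.2, 30.1 and 35.6 CPM, overlapping the PBS libraries (0.02 ± 0.10), and Ciita gave 0.01 ± 0.18. With all 24 libraries in 1 fit, 2 of the 10 were lower. Treatment, day and table all differ between day 30 and PBS AMs and cannot be told apart. The 5 genes called lower have different coordinates in the deposited tables. Cd86, Cd40 (0.09 ± 0.31) and H2-DMb1 (0.01 ± 0.12), with the same coordinates, did not pass. Neither did H2-DMa (-0.20 ± 0.10) and Ciita, whose coordinates differ. All 8 T cell markers, 8 of 10 interstitial macrophage markers (sums of 59.6 to 105 and 608 to 803 CPM) and 6 of 9 neutrophil markers were higher at day 30. The macrophage sum was 27347 to 28416 CPM after PBS and 56983 to 62385 CPM at day 30, with 4 of 7 higher and 1 lower. Their part in the lower class II was not tested.

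Days 30 and 14 lie in the same table and share the gate, genotype and treatment. From day 14 to day 30, Cd86 and the class II chains fell, 7 of the 10 genes in all, and none rose by edgeR or DESeq2. At an unadjusted p under 0.05, 1 was higher, H2-DMb2. Of all genes, 18.7% were called lower, 19.6% higher and 38.4% in either direction. Cd86 fell by 1.36 on the log2 scale (SE 0.10, adjusted p = 3.80e-08), H2-Aa by 0.85 (SE 0.10, 6.32e-06), H2-Ab1 by 0.84 (SE 0.11), H2-Eb1 by 0.80 (SE 0.08), Cd74 by 0.62 (SE 0.11), H2-DMb1 by 0.47 (SE 0.12) and H2-DMa by 0.44 (SE 0.10). The libraries did not overlap for 8 of the 10, and for 44.6% of all genes tested. Ciita did not pass (0.01 ± 0.19, adjusted p = 0.9599), at 27.8, 47.0 and 53.2 CPM on day 14 and 42.9, 44.5 and 48.6 CPM on day 30. H2-DMb2 gave 0.26 ± 0.12 (adjusted p = 0.0912), and 0.34 (0.0441) without day 30 replicate 1. Without day 14 replicate 3, Cd40 was also called lower (-0.82, adjusted p = 0.0241). With all 24 libraries in 1 fit, 3 of the 10 were lower.

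The other lists were tested in the same AM comparisons. Of 11 MHC class I genes, 10 were higher at day 14 than after PBS and 9 at day 30, with H2-K1 at 0.78 ± 0.08 and 0.76 ± 0.08 and B2m at 0.77 ± 0.07 and 0.71 ± 0.07. These pairs share the PBS libraries. Of the CD40 signalling genes, 6 of 8 were lower at day 14 and 4 at day 30, with 1 and 2 higher. H2-Ob was lower at day 14 (-3.23 ± 0.18) and rose from day 14 to day 30 (2.72 ± 0.18). All 9 B cell markers rose from day 14 to day 30, with sums of 95.4 to 123 and 239 to 258 CPM, and 6 of 11 dendritic cell markers rose. So did all 8 T cell markers, 8 of 9 neutrophil markers (91.8 to 111 and 524 to 610 CPM), 6 of 9 lung epithelial markers and 5 of 7 endothelial and fibroblast markers. Of the neutrophil markers 1 fell, and of the lung epithelial markers 2. Of 7 macrophage markers 5 fell and 2 rose, while their sum was 38093 to 47771 CPM at day 14 and 56983 to 62385 CPM at day 30. Of 10 interstitial macrophage markers 3 fell and 2 rose, with sums of 1037 to 1471 and 608 to 803 CPM. The class II chains fell over that interval, and the part of these lists was not tested. Marchf1 was higher at day 14 (1.09 ± 0.10) and fell to day 30 (-0.69 ± 0.10).

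The surface gates were compared at day 14 after bleomycin, where genotype, reporter gate, day and table are the same. Cd40 and Cd86 were higher in IMs, and the other 8 genes did not pass, with 0 lower by edgeR, by DESeq2 or at an unadjusted p under 0.05. These 2 stand against 10.8% of all genes higher, 10.2% lower and 21.0% in all. Cd40 was at 21.7, 19.0 and 30.2 CPM in IMs and at 5.53, 7.58 and 2.65 CPM in AMs (2.31 ± 0.35, edgeR adjusted p = 0.00204). Cd86 was at 118, 141 and 136 CPM in IMs (0.76 ± 0.14, adjusted p = 0.00318). Neither gene overlapped between the gates. H2-Aa gave 0.49 ± 0.45 (adjusted p = 0.509), and without IM replicate 1 it gave 0.89 (0.00152). H2-Ab1, H2-Eb1 and Cd74 were then called as well, 6 of the 10 in all, against 13.1% of all genes. Without IM replicate 3, H2-DMb2 was called lower in IMs (-0.65, adjusted p = 0.0336).

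After PBS the gates could be compared only between wild-type IMs and reporter EGFP+ AMs. Of the 10 genes, 7 were higher in IMs and 2 lower, against 39.2% of all genes higher, 39.7% lower and 78.9% in all. Cd40 was at 47.1, 37.4 and 41.7 CPM in IMs and at 3.40, 3.54 and 4.88 CPM in AMs (3.43 ± 0.13, adjusted p = 2.74e-14), and Cd86 differed by 2.36 ± 0.07. H2-Eb1 differed by 1.07 ± 0.06, more than H2-Aa (0.58 ± 0.07) and H2-Ab1 (0.65 ± 0.05), though the size of these gaps was not compared by a test. H2-DMa (-0.94 ± 0.06) and H2-DMb1 (-1.03 ± 0.06) were lower in IMs while H2-DMb2 was higher (1.28 ± 0.08). Ciita averaged 49.3 ± 2.07 and 48.7 ± 3.21 CPM, with a log2 difference of 0.01 ± 0.07 that did not pass. With all 24 libraries in 1 fit the calls of H2-Aa (adjusted p = 0.0658) and Cd74 (0.399) were lost. The B cell sum was 776 to 901 CPM in these IMs and 285 to 304 CPM in the AMs. The neutrophil sum was 7436 to 8865 and 132 to 207 CPM, the lung epithelial sum 4661 to 6759 and 499 to 512 CPM, and the classical monocyte sum 1205 to 1332 and 71.4 to 122 CPM. Their part in these gaps was not tested.

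The gap between the gates was itself tested as day 14 minus PBS. The IM minus AM difference was called lower at day 14 for Cd86 (-1.64 ± 0.16, adjusted p = 9.37e-07), H2-DMb2 (-1.49 ± 0.34, 0.00318) and Cd40 (-1.15 ± 0.41, 0.0339). None was called higher by edgeR or DESeq2, and 0 had an unadjusted p under 0.05 in that direction. These 3 stand against 21.9% of all genes lower, 24.9% higher and 46.8% in all. Cd86 averaged 190 ± 7.05 CPM in PBS IMs and 132 ± 12.4 CPM in day 14 IMs, and 36.9 ± 4.25 CPM in PBS AMs and 84.5 ± 4.18 CPM in day 14 AMs. Genotype, EGFP gate and table differ between the IM groups, so they cannot be told apart from day and treatment. The Cd40 call was lost without replicate 1 or 3 of the wild-type PBS IMs, or replicate 1 or 2 of the day 14 IMs, the day 14 AMs or the PBS AMs (adjusted p of 0.0576 to 0.148). Without day 14 IM replicate 1, the difference of gaps was called positive for H2-DMa (1.26), H2-DMb1 (1.30) and Cd74 (0.85).

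**Figure D4:**
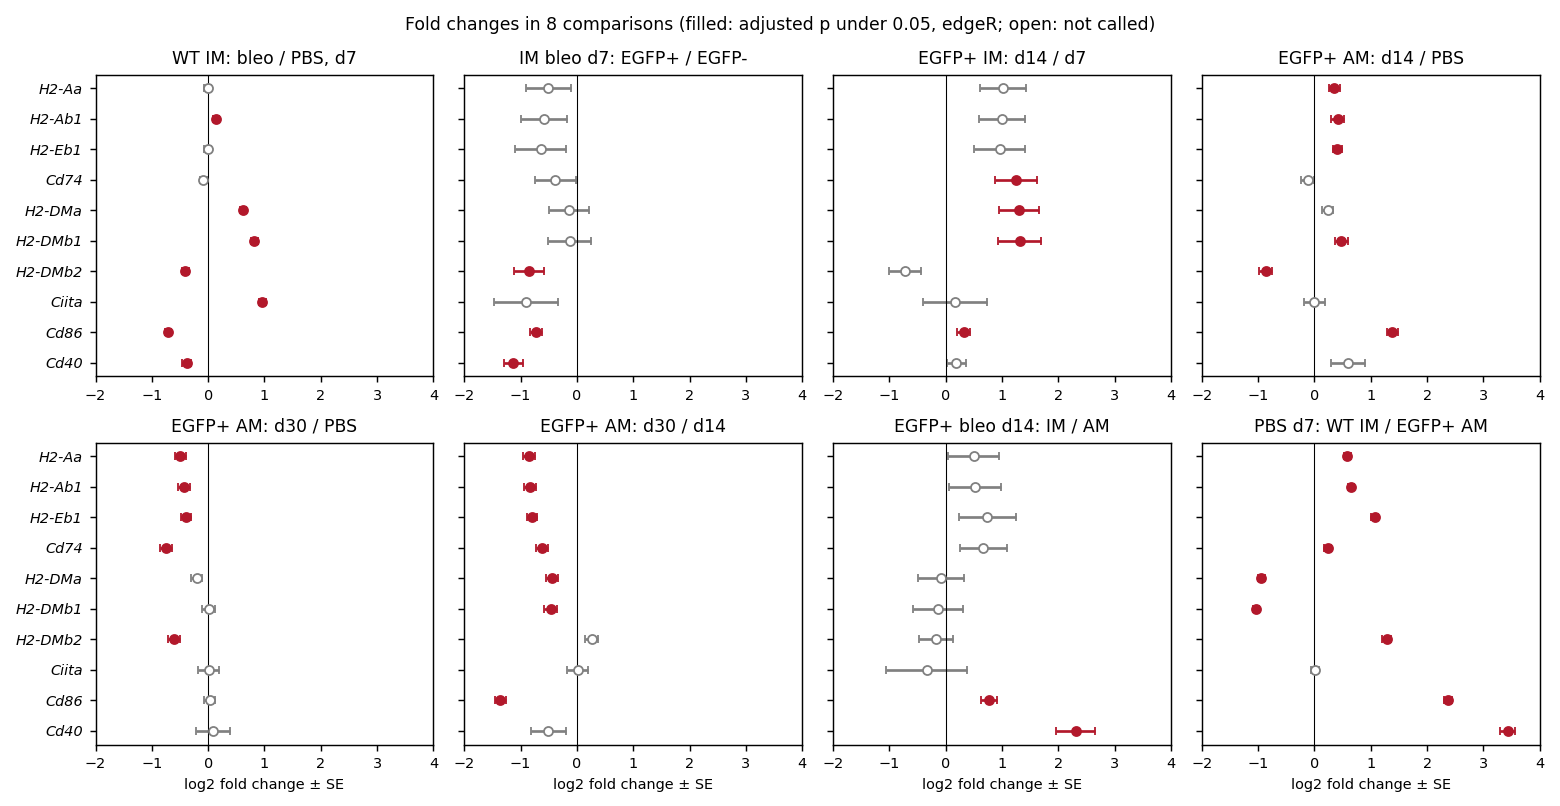
Log2 differences of the 10 genes in 8 comparisons, with bars of 1 SE and filled points where the adjusted p was under 0.05. In the 3 panels whose fit took in the day 14 IMs, the SE was 0.11 to 0.14 for Cd86 and 0.40 to 0.47 for H2-Ab1.

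H2-DMb1 and H2-DMb2 encode alternative beta subunits of H2-DM, and their balance differed between groups. H2-DMb2 took 35.2 ± 2.94% of the reads of the pair in wild-type IMs after PBS, and 18.8 ± 0.91% after bleomycin. It took 21.9 ± 1.14% in EGFP- and 14.6 ± 2.09% in EGFP+ IMs at day 7. At day 14 it took 4.36 ± 1.32% in IMs and 4.25 ± 0.93% in AMs, which overlapped. The AMs had 9.85 ± 0.87% after PBS and 6.64 ± 0.12% at day 30. The wild-type PBS libraries (32.0%, 37.8% and 35.8%) were above every other library.

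These shares are of counts, not of length-scaled levels, and the transcripts share sequence. Of 150-base windows, 5.74% of those of H2-DMb1 and 4.14% of those of H2-DMb2 occur in both, so counts of each are uncertain where reads could map to either. The wild-type PBS IMs, highest in this share, were also highest in the B cell, dendritic cell, neutrophil, lung epithelial and endothelial and fibroblast sums. Beyond that group the B cell sum had another order. EGFP- IMs came next in share with a B cell sum of 83.6 to 97.2 CPM, and PBS AMs, at 285 to 304 CPM, had a share of 9.85%. From highest share to lowest, the dendritic cell sum averaged 715 CPM (wild-type PBS IMs), 554 (EGFP- IMs), 527 (wild-type bleomycin IMs) and 409 (day 7 EGFP+ IMs). It then averaged 484 (PBS AMs), 285 (day 30 AMs), 168 (day 14 IMs) and 240 CPM (day 14 AMs). In the same order the neutrophil sum averaged 8020, 5403, 1613, 2301, 174, 570, 157 and 100 CPM. The part of these sums in the share was not tested. The promoters printed earlier for the pair both carry the X and Y cores, at different distances from the RefSeq start. The 2 lines align without a gap from the X core to the end of the H2-DMb1 line, and the H2-DMb2 line then runs on. The distances thus differ by where RefSeq places the start. Both RefSeq starts lie inside the gene intervals of the deposited tables.

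**Figure D5:**
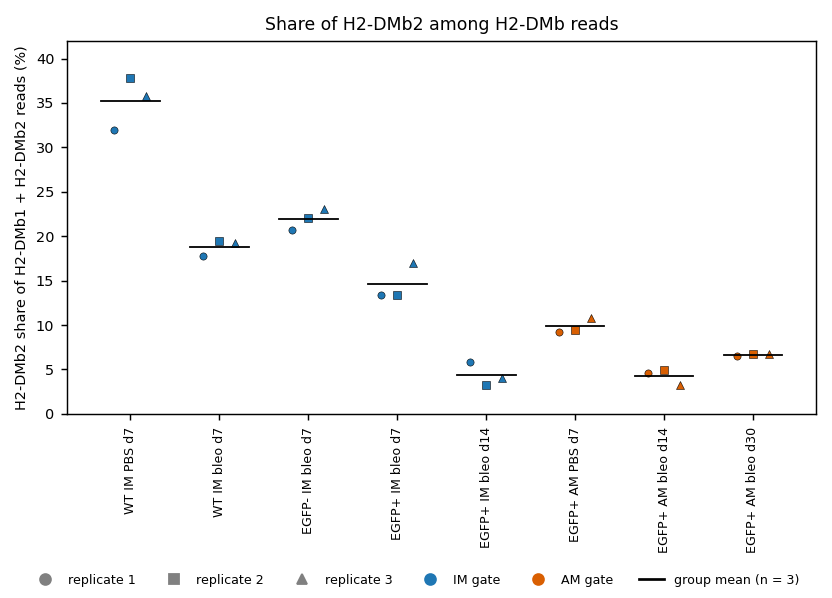
Share of H2-DMb2 among reads of H2-DMb1 and H2-DMb2 in percent, 1 point per library, with group means. The share is 32.0% to 37.8% in wild-type PBS IMs and 3.21% to 5.82% in the day 14 groups.

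Ciita and its targets did not keep a fixed ratio. The summed class II level (H2-Aa, H2-Ab1, H2-Eb1 and Cd74) per Ciita CPM was 273 in wild-type PBS IMs and 140 after bleomycin, where Ciita rose and H2-Aa, H2-Eb1 and Cd74 did not pass the test. It was 165 in EGFP- IMs, 218 in EGFP+ IMs at day 7 and 518 ± 197 at day 14. In AMs it was 197 after PBS, 225 at day 14 and 129 at day 30. H2-Eb1 relative to H2-Aa also differed by gate, at 0.88 ± 0.02 in wild-type PBS IMs and 0.63 ± 0.01 in PBS AMs. No test was made of these ratios.

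Over the 8 group means on the log2 scale, the genes most like each pattern are given as a description, since groups share tables and gates. The class II chains were closest to Fxr1 (Pearson r = 0.94 over 8 groups) and Tpt1 (0.92). Ciita was closest to Ccar2 (0.95) and Eml3 (0.94). Cd86 was closest to Emilin2 (0.97) and Gpr35 (0.97), and Cd40 to Thbs1 (0.99) and Lifr (0.99).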

How the data were processed

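The deposited values are raw counts of reads per gene, in 1 table of 15 libraries and 1 of 9, and every value used was a whole number. Per the submitters' processing notes, the tools were FastQC 0.11.5, Trimmomatic 0.38, HISAT2 2.1.0, SAMtools (no version) and featureCounts 1.6.3, with build GRCm38. The annotation release and the strand setting are not given in the sources used here. A further 3 columns could be matched to no sample and stayed out. The tables were joined on the Ensembl ID of the gene. The 49022 shared genes hold at least 99.486% of each library's counts, and 90.8% have the same coordinates in both tables. Comparisons of the day 14 IMs with day 7, and of AMs after bleomycin with PBS, span both tables.

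Tests used edgeR 4.0.16 in R 4.3.3 on the counts (TMM, filterByExpr, robust quasi-likelihood F test). Tests were 2-sided and group was the one term of the model. Every adjusted p is Benjamini-Hochberg over all genes tested, called under 0.05. The SE is the absolute log2 change over the square root of F. Separate fits were made for the 6 wild-type IM libraries, for all reporter IMs (9 libraries), for all AMs (9 libraries) and for each pair of gates, and the difference of gaps in 12 libraries. The script was tested on simulated data. Exon lengths are the union of each gene's exons in GENCODE M21, and promoter sequences are from RefSeq GRCm38.p6. The alternatives were DESeq2 1.42.0, no filter, other sets of libraries, the same coordinates only, a replicate block and leaving out each library.

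All 10 genes were named in each comparison, and up to 4 genes of each pathway list, those with the smallest p whose higher group averaged 5 CPM or more. For likeness, the 5 genes with the highest Pearson r over group means of log2(CPM + 1) were kept. They were taken from genes with a mean of at least 10 CPM over the 8 groups, and predicted genes (Gm and Rik names) were left out. The genes, lists and comparisons were chosen with earlier results of these data known. Deviations of same-numbered libraries from their group means correlated at 0.18, 0.09 and 0.13 between IMs and AMs at day 14. In the other pairs of groups they correlated at -0.02 to 0.09. The labels do not say whether the numbers are pairs, and they were not taken as such. With the replicate block, 3648 genes (from 2832) were called between the gates at day 14. Of the 10 genes, 2 were still higher and 0 lower. One marker gene of the B cell list is not reported here and was left out of its sums and counts.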

Additional observations from a re-analysis of the deposited data

Results flagged for a closer look

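The gap between IMs and AMs differed between day 14 after bleomycin and day 7 after PBS for 3 of the 10 genes, by edgeR's test of the difference of differences. Cd86 gave -1.64 on the log2 scale (adjusted p = 9.37e-07), H2-DMb2 -1.49 (0.00318) and Cd40 -1.15 (0.0339). The Cd40 call was lost without any 1 of 8 of the 12 libraries (adjusted p of 0.0576 to 0.148). For Cd86 each day 14 IM library lay below each PBS IM library, and each day 14 AM library above each PBS AM library. The PBS IMs were wild-type and were counted in the other table, so genotype and table cannot be told apart from treatment and day.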

How the results depend on the processing

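Of 1112 alternative log2 fold changes of the 10 genes, 1023 kept the call or its absence, 51 lost the call and 38 gained it. None that was called in the main fit or in the alternative reversed direction. Where neither was called, direction was not compared. In EGFP+ IMs from day 7 to day 14, the number of the 10 genes higher (4) became 1 with no filter, 7 with all 24 libraries fitted and 2 of the 3 genes with the same coordinates, and ran from 0 to 8 leaving out 1 library. The number lower (0) became 1 with DESeq2, 1 with all 24 libraries and 1 with the replicate block, and ran from 0 to 1. Fitting all 24 libraries gave 2 higher (from 4) in wild-type IMs, 1 higher (from 5) in day 14 AMs and 2 lower (from 5) in day 30 AMs, each against PBS, 3 lower (from 7) in AMs from day 14 to day 30, and 5906 genes (from 2832) between gates at day 14. Fitting only the EGFP+ and EGFP- IMs gave 8 lower (from 3). The same coordinates gave 2 higher and 0 lower in day 14 AMs and 0 lower in day 30 AMs, with 3 of the 10 genes testable. No filter gave 3 higher (from 0) in the difference of gaps. Leaving out 1 library gave 3280 (without EGFP+ replicate 2) to 4221 genes for EGFP+ against EGFP- (from 5206), 1 to 2 lower in day 14 AMs, 0 to 1 higher from day 14 to day 30, 1840 (without AM replicate 2; 1881 without AM replicate 3) to 3326 genes, 2 to 6 higher and 0 to 1 lower between gates at day 14, and 0 to 3 higher in the difference of gaps. With the replicate block, 2 of the 3 lower calls in the difference of gaps remained, that of Cd40 being lost (adjusted p = 0.0602). The cause was not tested. TMM scaling moved 25 of 80 group levels by more than 1 SD, by ratios of 0.911 to 1.20. With 3 libraries a group and the spread of the day 14 IMs, changes of class II there were detectable only where large.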
